A study of Mus musculus with 4 samples.

Results

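The subject is a set of 10 genes of intestinal lipid absorption, picked by symbol from the 31053 genes in the deposited files. They are the apolipoprotein genes Apoa1, Apoa4, Apoc3 and Apob, the genes of 3 fatty acid or bile acid binding proteins (Fabp1, Fabp2 and Fabp6), the retinol binding protein gene Rbp2, and the genes of 2 endoplasmic reticulum proteins of lipid assembly, Mttp and Dgat1. All 10 symbols were found. Each gene was followed over the 12 cell types that the authors named in 15234 mouse duodenal crypt cells, in the RNA found outside cells, and between 2 genotypes. Levels are unique molecular identifiers (UMIs, each counting 1 captured RNA molecule) summed over the cells of a type in a library, divided by all UMIs of that sum and scaled to the usual CPM. UMIs of this 3′ chemistry are not scaled by gene length, so levels are compared between types and libraries, not between genes.

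Single-cell libraries were made from living cells carrying the red reporter TOM, sorted from duodenal crypts, with 2 libraries per genotype. Both groups carried the R26RTom reporter and received 2 intraperitoneal doses of tamoxifen at 1 mg/mL, 24 h apart, and cells were taken 12 h after the last dose. The WT libraries are labelled Atoh1CreER-T2;R26RTom and the APC-KO libraries Atoh1Cre;Apcfl/fl;R26RTom, while the series description names the inducible Atoh1CreER-T2 driver for both. Atoh1 is a gene of the secretory lineage, so its driver set which cells could switch on the reporter, delete Apc and enter the sort. The labels name no animals, ages or sexes, and the p-values below therefore measure the spread between libraries, which may be technical. Values of 4 libraries are given in the order WT replicate 1, WT replicate 2, APC-KO replicate 1 and APC-KO replicate 2.

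Of the barcodes, 4814, 3821, 356 and 6243 were kept as cells in the deposited tables, and they held 40.4%, 37.6%, 5.15% and 50.3% of the UMIs of their libraries. APC-KO replicate 1 therefore stood apart, with 71135 UMIs from 11 cells of the type ENTERO-PRO against 460514 to 2511248 UMIs in the other libraries, and results that rest on it are given with and without it. Pairs of libraries shared 1 to 8 cell barcodes. Apc was measured at 87.2, 77.9, 88.1 and 88.1 CPM over all kept cells. These reads come from the 3′ end of the transcript and the floxed exons are not named in the labels, so this level checks neither the deletion nor the labels.

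In the small intestine, absorptive enterocytes take up fatty acids, monoacylglycerol, cholesterol and retinol at their brush border. Cytosolic binding proteins carry these lipids to the endoplasmic reticulum, where they are esterified again. Microsomal triglyceride transfer protein then loads the fat onto apolipoprotein B, and the chylomicrons so formed take up further apolipoproteins before they leave for the lymph. These genes are textbook products of enterocytes, and goblet, Paneth, tuft and enteroendocrine cells are not known for fat export.

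The promoters of the members are shown here because several members shared their pattern over the cells, as described further on. RefSeq promoter entries on GRCm38.p6 matched 8 of the 10 genes, and 250 bases before each start were searched on both strands for 4 short motifs, chosen after values and sequences had been seen. TGNACTTTG, a form of the direct repeat bound by HNF4 factors, was present in 3 of the 8 promoters (Apoa4, Fabp2 and Rbp2), and in 1.19% of 32851 promoters of the same length. GTTAAT, a half-site of HNF1, was present in Fabp1 and in 6.43% of all promoters, and AGATAA, the letters that bind zinc-finger factors such as Gata4 and Gata6, was present in Rbp2 and in 9.99%. The core promoter box TATAAA was found in Apob, Fabp1, Fabp6 and Rbp2 and in 12.4% of all promoters, and its matches in Apob and Fabp1 lie outside the sequences printed. In Rbp2 the AGATAA match overlapped a TATAAA match on the same strand by 1 base. A match is a description of letters and says nothing about occupancy. The 5 sequences below run 5′ to 3′ on the gene's strand, leave out the parts of the searched window that lie inside an annotated exon, and have the matches in capitals.
Apoa4 promoter, chr9:46240594-46240695, strand +: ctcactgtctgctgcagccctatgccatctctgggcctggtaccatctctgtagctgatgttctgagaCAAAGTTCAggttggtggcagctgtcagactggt
Fabp2 promoter, chr3:122894822-122895071, strand +: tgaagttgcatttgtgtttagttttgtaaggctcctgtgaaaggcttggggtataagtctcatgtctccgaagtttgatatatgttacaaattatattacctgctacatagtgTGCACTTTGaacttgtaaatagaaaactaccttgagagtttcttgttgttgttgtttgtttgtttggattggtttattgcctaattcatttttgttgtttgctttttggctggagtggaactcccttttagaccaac
Rbp2 promoter, chr9:98490287-98490536, strand +: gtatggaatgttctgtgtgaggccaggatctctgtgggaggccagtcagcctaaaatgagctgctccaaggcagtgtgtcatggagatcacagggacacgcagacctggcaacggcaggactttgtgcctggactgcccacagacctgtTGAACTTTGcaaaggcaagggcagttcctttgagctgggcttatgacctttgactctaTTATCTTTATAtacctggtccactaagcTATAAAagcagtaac
Fabp1 promoter, chr6:71199629-71199826, strand +: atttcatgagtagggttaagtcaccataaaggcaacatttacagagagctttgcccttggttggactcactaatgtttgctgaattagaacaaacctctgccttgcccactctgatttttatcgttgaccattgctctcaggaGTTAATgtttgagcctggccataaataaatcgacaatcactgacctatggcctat
Fabp6 promoter, chr11:43601563-43601812, strand -: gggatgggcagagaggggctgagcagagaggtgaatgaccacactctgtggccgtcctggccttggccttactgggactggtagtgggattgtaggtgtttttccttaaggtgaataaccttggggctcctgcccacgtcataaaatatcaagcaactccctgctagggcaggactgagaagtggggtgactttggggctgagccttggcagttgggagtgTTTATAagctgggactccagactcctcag
The repeat lay 182 to 174 bases before the start of Apoa4, on the other strand, 137 to 129 bases before that of Fabp2 and 101 to 93 bases before that of Rbp2. In Fabp1 the GTTAAT match lay 107 to 102 bases before the start. Fabp6, the gene with the most uneven pattern, had none of the first 3 motifs in its window.

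ENTERO-PRO was set against marker lists, which were chosen with earlier results of these data known. The list of 20 brush border genes, which holds the enzymes Alpi and Sis, summed to 15384, 9989, 16476 and 7607 CPM in ENTERO-PRO, against 284 to 3932 CPM in the other types. Alpi had 117, 250, 281 and 97.2 CPM there, and Sis 349, 321, 366 and 223 CPM. Lgr5, a stem cell marker, was at 0 in 3 libraries and at 1.59 CPM in APC-KO replicate 2. The goblet list summed to 28643, 21984, 2741 and 40286 CPM in ENTERO-PRO, against 59304 to 65155 CPM in free RNA, and Muc2, the goblet mucin, to 1384, 927, 197 and 1768 CPM. The brush border list was thus highest in the type with the enterocyte name. This is no independent check, because the authors named the types from expression. The progenitor part of the name was not checked. Sis alone does not set the type apart, since NON-EC cells came near or above its levels, as given below. The goblet list summed above the brush border list in all libraries but APC-KO replicate 1, and the part of this goblet RNA in the results was not tested. EC is not an enterocyte name here, since its cells had 66869 to 87340 CPM of the enteroendocrine list and 1200 to 1426 CPM of the brush border list.

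Among the 12 types, 9 of the 10 genes had their highest WT level in ENTERO-PRO, and all 10 did by the APC-KO mean. The exception was Fabp6, which had no UMI in WT ENTERO-PRO cells, and its APC-KO place rested on replicate 2, since replicate 1 had 0 Fabp6 UMIs in ENTERO-PRO and its 4 in GOBLET-PRE. No test was made over types, because the authors named the types from expression that includes these genes. In WT the highest and the second type did not overlap between libraries for any of the 10 genes, while 63 of the 110 neighbouring pairs in the 10 orders did overlap. In APC-KO the highest type was apart from the second for 9 genes, all but Fabp6, and 89 of the 110 pairs overlapped. The counts of 9 and 10 genes were the same after free RNA was subtracted, after cells were thinned to 2000 UMIs and without the 5% of cells richest in brush border RNA.

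**Figure D1:**
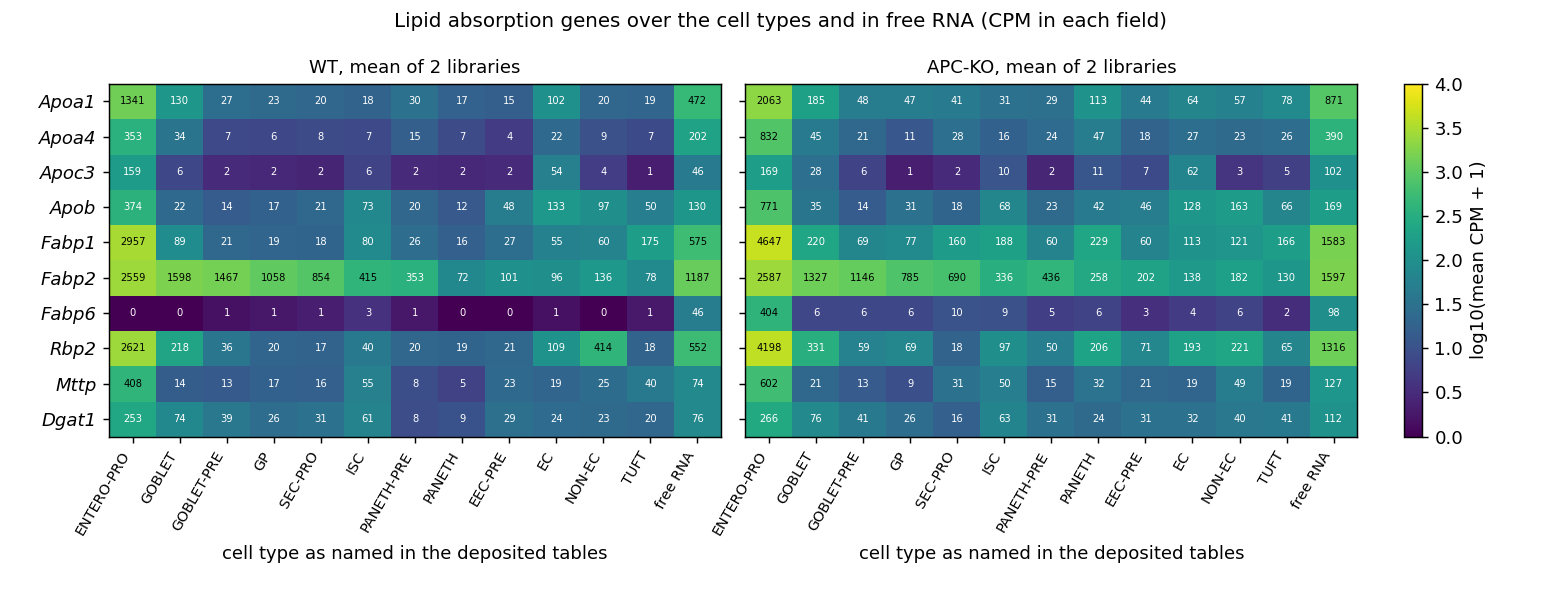
Mean CPM of each of the 10 genes (vertical) in the 12 types and in free RNA (horizontal) for WT and APC-KO, 2 libraries each, with the value written in each field and the colour on a log10(CPM + 1) scale. ENTERO-PRO is the brightest type in 9 rows of WT and all rows of APC-KO, and Fabp2 is bright across GOBLET, GOBLET-PRE, GP and SEC-PRO as well.

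The apolipoproteins came first by role. Apoa1, the main protein of high density lipoprotein and a chylomicron protein, lies at chr9:46228580-46230466 on the plus strand in GENCODE vM21 (GRCm38). It had 1371, 1312, 2418 and 1708 CPM in ENTERO-PRO, and both APC-KO libraries lay above both WT libraries. GOBLET came next in WT with 130 CPM ± 25.8 (SD, n = 2), a level not apart from EC at 102 ± 54.6 (SD, n = 2), and the other 9 types had WT means of 15.3 to 29.7 CPM. Apoa4, a chylomicron protein of the small intestine, lies on the same chromosome at chr9:46240696-46243459. Its ENTERO-PRO levels were 356, 350, 731 and 933 CPM, again without overlap of the genotypes, and its other WT means were at most 34.1 CPM. Apoc3, an inhibitor of lipoprotein lipase, lies between those genes at chr9:46232933-46235636 on the minus strand, and had 196, 122, 112 and 226 CPM in ENTERO-PRO with overlapping genotypes. The second type of Apoc3 was EC, with 48.7, 58.8, 73.2 and 51.2 CPM, and every other type had a WT mean of at most 6.27 CPM.

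Apob (chr12:7977648-8016835) encodes the scaffold of the chylomicron and had 371, 376, 1068 and 473 CPM in ENTERO-PRO. The 1068 CPM of APC-KO replicate 1 was over 2 times the value of any other library. Unlike the other apolipoproteins, Apob was also spread over further types. It had 143, 124, 106 and 150 CPM in EC, 109, 85.8, 214 and 111 CPM in NON-EC and 68.9, 77.3, 52.8 and 84.2 CPM in ISC, against 12.5, 14.6, 7.86 and 19.2 CPM in GOBLET-PRE. In WT the levels of EC, NON-EC and ISC followed each other without overlap between libraries.

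The binding proteins followed 3 patterns. Fabp1 (chr6:71199827-71205023), the liver-type fatty acid binding protein, which also serves the small intestine, had 2779, 3136, 6973 and 2322 CPM in ENTERO-PRO, or 16.9 times the WT mean of the second type, TUFT. The value of APC-KO replicate 1 was the highest and that of APC-KO replicate 2 the lowest. Fabp2 (chr3:122895072-122899506), the intestinal fatty acid binding protein, had 2534, 2584, 2980 and 2193 CPM in ENTERO-PRO, only 1.60 times the WT mean of GOBLET. Its GOBLET levels were 1528, 1669, 1616 and 1037 CPM and its GOBLET-PRE levels 1413, 1520, 1379 and 913 CPM. From there Fabp2 stepped down without overlap in WT to GP at 1027 and 1088 CPM and to SEC-PRO at 840 and 867 CPM. PANETH, by contrast, had 75.9 and 69.1 CPM in WT. Fabp6 (chr11:43596049-43601540), the ileal bile acid binding protein, was at 0 in ENTERO-PRO of the first 3 libraries and at 807 CPM in APC-KO replicate 2.

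Rbp2 (chr9:98486115-98509781), which binds retinol for its esterification, had 2253, 2988, 6776 and 1620 CPM in ENTERO-PRO. As for Fabp1, APC-KO replicate 1 was highest and APC-KO replicate 2 lowest. The second type in WT was NON-EC, a type rich in enteroendocrine markers, with 480, 347, 257 and 185 CPM. GOBLET had 198, 238, 460 and 202 CPM of Rbp2 and GOBLET-PRE 33.4, 39.3, 73.5 and 45.1 CPM, so the 2 goblet types were apart in every library.

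The assembly genes were followed last. Mttp (chr3:138089854-138144968), the transfer protein that lipidates apolipoprotein B, had 391, 426, 942 and 262 CPM in ENTERO-PRO. ISC was its second type in WT, at 52.8 and 57.5 CPM, and had 52.8 and 46.3 CPM in APC-KO, against 12.3 to 14.0 CPM in GOBLET-PRE over the 4 libraries. Dgat1 (chr15:76502015-76511953), which joins the last fatty acid to diacylglycerol, had 220, 287, 337 and 195 CPM in ENTERO-PRO, 64.1, 83.5, 88.1 and 63.2 CPM in GOBLET and 56.0, 65.3, 66.0 and 59.6 CPM in ISC. GOBLET and ISC did not differ in Dgat1 beyond the spread of the libraries, and PANETH in WT had 10.8 and 7.73 CPM.

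Free RNA was measured in barcodes of 1 to 50 UMIs, none of them a kept cell. It stands in for the RNA that a droplet receives from broken cells, and whether other sources add to it was not tested. In WT replicate 1, barcodes of 1 to 10 UMIs held 1021027 of its 1106937 UMIs. The level can depend on the range of barcodes, as for Fabp6 below. The 10 genes were abundant in it. Fabp2 had 1136, 1238, 2116 and 1078 CPM in free RNA, Fabp1 614, 535, 2493 and 673 CPM, Rbp2 550, 554, 2102 and 531 CPM, and Apoa1 387, 558, 993 and 750 CPM. In ENTERO-PRO the median member stood at 329%, 269%, 253% and 244% of the free RNA of its library. In the other 11 types the median lay between 1.96% and 23.7%. One source of free RNA keeps its genes in 1 ratio in every type of a library, so members that stand out from their type's median have a higher level than that ratio gives.

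**Figure D2:**
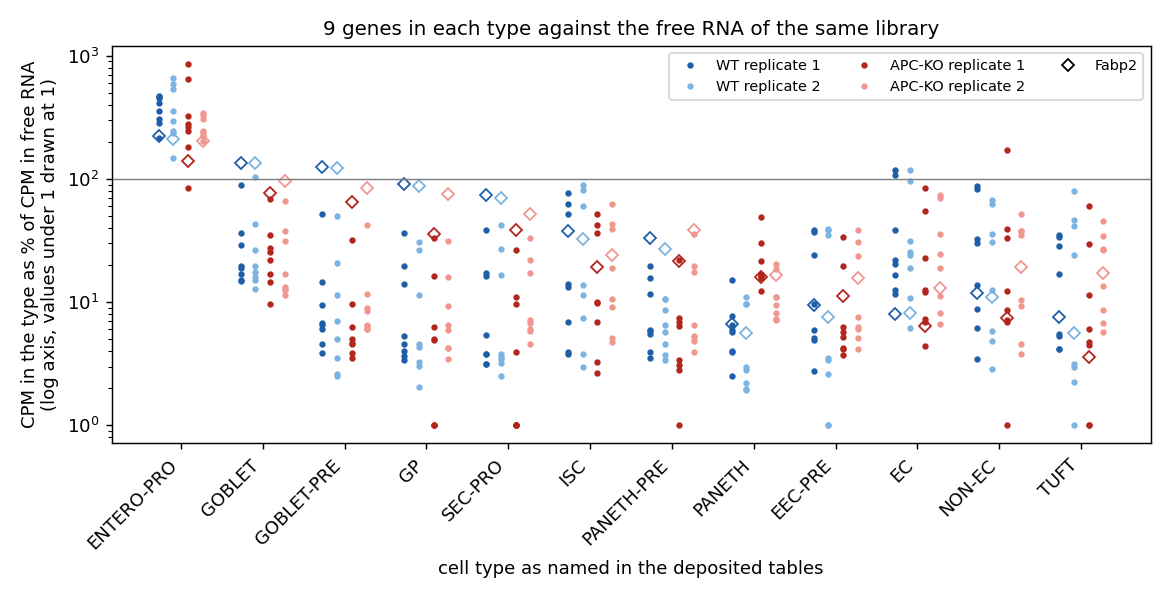
CPM of 9 genes in each type as a percent of their CPM in the free RNA of the same library (vertical, log axis, values under 1 drawn at 1), for the 12 types (horizontal), with 1 colour per library, Fabp2 as open diamonds and Fabp6 left out. In ENTERO-PRO all points but 1 lie above 100%, and in GOBLET-PRE, GP and SEC-PRO Fabp2 lies above every other gene.

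Several members stood out from the median of a type. Fabp2 was at 124%, 123%, 65.2% and 84.7% of free RNA in GOBLET-PRE, where the median member was at 6.62%, 6.03%, 5.04% and 7.65%. Thinned to 2000 UMIs, 90.5%, 92.6%, 91.2% and 82.6% of GOBLET-PRE cells had a Fabp2 UMI, against 12.3% and 13.0% of PANETH cells in WT, whose median depths were 12644 and 10372 UMIs against 5311 and 5747 in GOBLET-PRE. Dgat1 was at 77.5%, 81.5%, 51.5% and 62.0% of free RNA in ISC and Mttp at 62.9%, 89.0%, 36.2% and 42.7%, above the ISC medians of 13.7%, 12.5%, 9.93% and 15.1%. Fabp1 in ISC lay near those medians, at 14.2%, 13.7%, 10.1% and 18.8%. Apoa1 and Apoa4 in ISC lay below them, at 2.66% to 4.75% and 2.97% to 5.12%, close to the 4.64% to 6.72% and 2.52% to 6.07% in GOBLET-PRE. Those low levels of Apoa1 and Apoa4 are not distinguishable from a small share of free RNA. The medians of GP, SEC-PRO and GOBLET-PRE lay between 1.96% and 9.91%.

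ENTERO-PRO cells were few, at 2.41%, 1.70%, 3.09% and 7.50% of the kept cells, and gave 24.1%, 18%, 26.0% and 56.7% of all UMIs of the 10 genes. Of Fabp1 they gave 68.1%, 66.8%, 53.1% and 77.2%, and of Apoa1 62.0%, 44.2%, 45.7% and 79.2%. For Fabp2 their part was 9.0%, 5.7%, 6.5% and 30.8%, and GOBLET-PRE gave 43.9%, 51.1%, 75.0% and 23.1%. ENTERO-PRO thus gave most of the Fabp1 in each of the 4 libraries and most of the Apoa1 in 2 of them. Of the Fabp2 it gave less than GOBLET-PRE in all libraries but APC-KO replicate 2, where it gave more.

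The ENTERO-PRO cells differed much among themselves. At 2000 UMIs per cell, Fabp2 was detected in 86.1%, 87.5%, 100% and 77.1% of them and Fabp1 in 75.7%, 81.2%, 87.5% and 63.4%, with 8 cells behind the values of APC-KO replicate 1. Apoa1 was detected in 27.8%, 32.8%, 75.0% and 30.5%, Apoa4 in 15.7%, 23.4%, 50% and 21.6%, and Apoc3 in 14.8%, 21.9%, 25% and 16.0%. Without thinning the shares for Apoa1 were 48.3%, 49.2%, 81.8% and 42.7%. The 5% of cells with most Apoa4 held 71.5%, 67.1%, 36.5% and 73.1% of its UMIs, and those with most Apoa1 63.0%, 56.1%, 30.8% and 53.6%. For Dgat1 the matching shares were 21.6%, 15.2%, 25% and 21.4%. The apolipoproteins A-I and A-IV were thus concentrated in few ENTERO-PRO cells, while Fabp2 and Fabp1 were found in most. In APC-KO replicate 1 the 5% was a single cell.

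Across ENTERO-PRO cells of 1 library, at equal depth, Apoa1 went with Apoa4 at r = 0.86, 0.78 and 0.82 in WT replicate 1 (115 cells), WT replicate 2 (64 cells) and APC-KO replicate 2 (462 cells). Fabp1 went with Rbp2 at r = 0.80, 0.86 and 0.76, and Apoa1 with Fabp2 at 0.74, 0.69 and 0.75. With the share of brush border RNA in a cell, r was 0.57, 0.76 and 0.60 for Apoa1 and 0.54, 0.66 and 0.42 for Fabp1. These are descriptions over log2(UMIs + 1) of cells that share a library, and no p is attached.

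Fabp6 departed from the other members. In APC-KO replicate 2, ENTERO-PRO held 2027 Fabp6 UMIs, of which 2000 lay in 11 of 468 cells with 13 to 709 UMIs each, while 432 cells had none. In WT, ENTERO-PRO had 0 of 1219792 UMIs, so the 807 CPM of that library was at least 328-fold higher than the level that 3 counts over both WT libraries would give, and APC-KO replicate 1 with 11 cells had none. Outside ENTERO-PRO that library held 3 ISC cells with 46 Fabp6 UMIs and 1 SEC-PRO cell with 47. The 9 remaining types of APC-KO replicate 2 had 3.04% to 8.18% of the Fabp6 level of its free RNA, which was at 153 CPM against 50.6, 41.5 and 44.3 CPM in the other libraries. In barcodes of 11 to 100 UMIs the levels were 9.59, 2.78, 43.6 and 162 CPM.

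**Figure D3:**
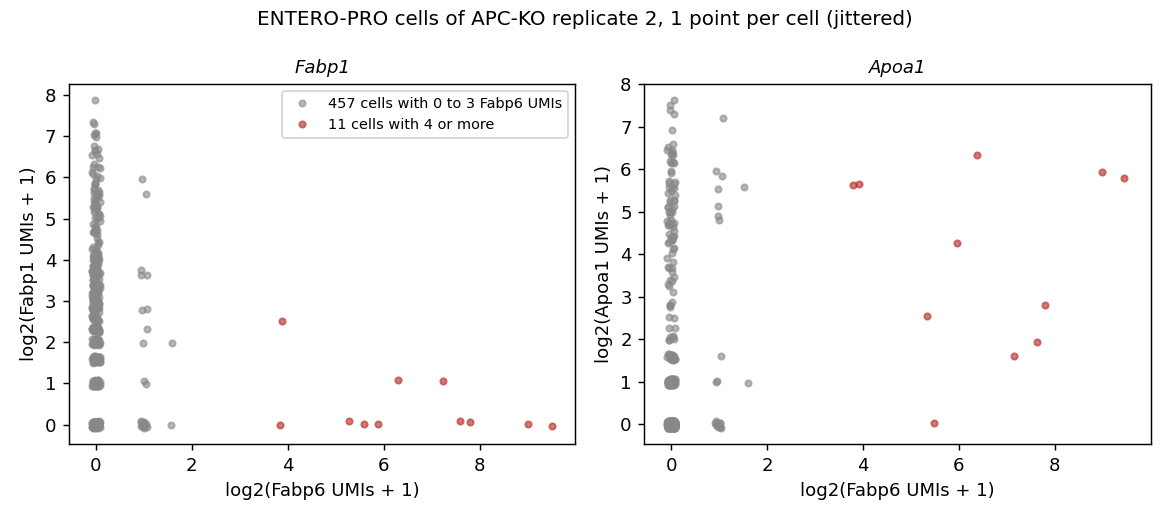
Fabp1 UMIs (left) and Apoa1 UMIs (right) against Fabp6 UMIs in each of the 468 ENTERO-PRO cells of APC-KO replicate 2, on log2(UMIs + 1) scales with jitter. The 11 cells with 4 or more Fabp6 UMIs (red) have few or no Fabp1 UMIs and include cells high in Apoa1.

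The 11 cells with 4 or more Fabp6 UMIs were set against the 432 with none. The genes in this description were chosen after their values had been seen, and 1 library gives no test. The 11 cells had 123 CPM of Fabp1 against 2431, and 492 CPM of Rbp2 against 1666. They had 5743 CPM of Apoa1 against 1512, 7394 CPM of Fabp2 against 2017 and 1054 CPM of Apob against 430. Genes of bile acid transport were also higher in them. Slc10a2, the apical bile acid uptake carrier of the ileum, had 15 UMIs in the 11 cells and 0 in the 432, Slc51a of the basolateral exporter 738 CPM against 61.9, and Slc51b, its other subunit, 667 CPM against 25.8. Gata4, a factor of the proximal small intestine, had 0 UMIs in the 11 cells and 58.9 CPM in the others. Other genes read beside these went different ways. Pdx1, a duodenal factor, was at 17.6 CPM against 18.5, with 1 UMI in the 11 cells. Fgf15, an ileal hormone gene, was at 0 in both, and Ces1f was at 87.8 CPM against 81.7. Lower in the 11 cells were Onecut2 (70.2 CPM against 250) and Adh6a (52.7 against 167), on 4 and 3 UMIs in the 11 cells. Slc40a1 was at 0 against 22.3 CPM. The 11 cells held 56941 UMIs, so 0 UMIs of Slc40a1 or Gata4 need not mean a lower level. Higher in them were Clec2h (1229 CPM against 214) and Tmigd1 (650 against 0.86). Sis was at 1019 CPM against 203. Median depth was alike, at 5108 and 4930 UMIs per cell.

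Members found outside ENTERO-PRO were often held by few cells, which were examined after their levels had been seen. In NON-EC, 45 of 305, 14 of 188, 1 of 13 and 10 of 217 cells had 4 or more Rbp2 UMIs, and these held 84.0%, 77.0%, 50% and 52.1% of the Rbp2 of that type. They had 27403, 37587, 50000 and 52292 CPM of Gip, the incretin hormone of K cells, against 196, 28.8, 0 and 1181 CPM in NON-EC cells without Rbp2. Fabp5, another fatty acid binding protein, had 6748, 9352, 11605 and 6649 CPM in them, against 373, 247, 845 and 436 CPM. Rbp4, the plasma retinol carrier, had 971, 1165, 3295 and 1388 CPM against 69.7, 175, 141 and 111 CPM. Of the brush border enzymes, Alpi was at 5.55, 0, 0 and 32.3 CPM in the Rbp2-rich cells, while Sis was at 577, 615, 716 and 646 CPM against 237, 307, 282 and 171 CPM in the cells without Rbp2. Sis was thus higher beside Rbp2 in every library, and the part of enterocyte RNA in these cells was not tested. Across NON-EC cells, r of Rbp2 with Gip was 0.73 (305 cells), 0.74 (188 cells) and 0.63 (217 cells).

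In EC, Apoc3 had 1 to 3 UMIs in 32, 16, 4 and 20 cells and 4 or more in 3, 4, 2 and 4 cells. Afp, alpha-fetoprotein, had 16630, 12211, 2397 and 13379 CPM in the cells with 1 to 3 UMIs, against 486, 133, 3123 and 730 CPM in those with none, so it was higher in all libraries but APC-KO replicate 1, where 4 cells gave the value. In the 2 cells of that library with 4 or more Apoc3 UMIs, Afp had 38173 CPM. Across EC cells r of Apoc3 with Afp was 0.66 (387 cells), 0.70 (270 cells) and 0.51 (311 cells). In TUFT, 6 of 231, 4 of 123, 0 of 8 and 5 of 276 cells had 4 or more Fabp1 UMIs, and they held 62.6%, 85.0% and 65.4% of the Fabp1 of that type in the libraries that had such cells. These cells had no Alpi or Sis UMI, and 1881, 2815 and 557 CPM of the tuft kinase Dclk1. The 5 tuft cells of APC-KO replicate 2 had less Dclk1 than the 1047 CPM of the cells without Fabp1, and the WT ones had more than the 1287 and 1302 CPM there.

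Genes with a like pattern were sought over 39 sums of type and library with at least 20 cells, among 6037 genes. The 5 with the highest correlation to the mean of the members on log2(CPM + 1) were Spink1 (r = 0.88), Apol10a (0.86), Hnf4g (0.86), Reg1 (0.85) and Maf (0.84). Apoa1 and Apoa4 were each other's closest gene at 0.91, and Apoc3 was closest to Apoa1 at 0.84. The closest genes were Fam213b for Apob (0.91), Spink1 for Fabp1 (0.86), H2-Q2 for Rbp2 (0.86), Maoa for Mttp (0.92) and Psmb8 for Dgat1 (0.88). Fabp2 was closest to Lypd8 (0.94) and reached only 0.41 with the mean of the other members, and Fabp6 was closest to Rps29 (0.74) and reached 0.30. The sums share libraries and cell types, so these values describe and do not test.

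The genotypes were first compared over all kept cells. All 10 genes had positive log2 fold changes in APC-KO, with a median of 1.24 against 0.01 over all genes, and 0 of 10 passed the threshold of an adjusted p of 0.05 (edgeR quasi-likelihood test, Benjamini-Hochberg over all genes, 2 libraries against 2). The background was 0%, since none of 13345 genes passed, while 495 genes and 9 of the 10 members had an unadjusted p under 0.05 and the DESeq2 Wald test called 21 genes, 3 of them members. Apoa4 had 19.4, 17.0, 40.9 and 106 CPM over all cells, a log2 fold change of 2.10 (SE 0.42). Fabp1 had 126, 103, 310 and 277 CPM, a log2 fold change of 1.46 (SE 0.21), and Apoa1 had 68.0, 65.1, 125 and 199 CPM, one of 1.36 (SE 0.22). Both APC-KO libraries lay above both WT libraries for all members but Fabp2. How many of all genes lay so was not counted, so this order is not read as particular to the members. For Fabp6 the value of APC-KO replicate 1 was 4 UMIs. Fabp2 had 868, 989, 1089 and 655 CPM and a log2 fold change of 0.02 (SE 0.35). Over a mixed population, more cells of a type and more RNA per cell cannot be told apart. The share of ENTERO-PRO cells was highest in APC-KO replicate 2, and when ENTERO-PRO cells were left out (an alternative chosen with the data in view) log2 fold changes were 1.44 for Apoa4, 1.63 for Fabp1 and 0.94 for Apoa1, with a median of 0.92 and no gene called. Over the alternatives the log2 fold changes ran from 1.37 to 2.83 for Apoa4, 1.29 to 1.64 for Fabp1 and 0.94 to 1.69 for Apoa1. Which members were called changed with the APC-KO library left out.

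Shares of cells with a UMI were compared as well. At 2000 UMIs per cell, Fabp1 was detected in 7.32% ± 1.54 (SD, n = 2) of WT cells and 20.1% ± 8.75 (SD, n = 2) of APC-KO cells, and Apoa4 in 2.11% ± 0.060 and 6.10% ± 0.767 (SD, n = 2 each). The exact permutation test over libraries, two-sided, gave p = 0.333 for both, the smallest that 2 against 2 allows. Over all cells 8 members were apart in this way, and Fabp2 and Fabp6 overlapped (exact permutation p = 1 for each). The share of all genes apart in this way was not counted. Within ENTERO-PRO Apob alone was apart, and Apoa1 and Apoa4, whose summed levels were apart, overlapped in their shares (exact permutation p = 0.667 for each). The mean share for Fabp1 in ENTERO-PRO was 78.5% in WT and 75.5% in APC-KO, with overlap (exact permutation p = 1).

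The genotypes were next compared within ENTERO-PRO. Of the 9 members tested 0 were called, against a background of 0.0788% of 6348 genes in either direction and 0.0473% higher (edgeR), and the median log2 fold change was 0.64 against 0.02 over all genes. Fabp6 had too few libraries with a UMI to be tested. Apoa4 came nearest, with both APC-KO libraries at about 2 times or more of both WT libraries, a difference of 1.30 on the log2 scale (SE 0.30) and an adjusted p of 0.187 (edgeR). Apob followed with 0.98 (adjusted p 0.461, SE 0.36) and Apoa1 with 0.64 (adjusted p 0.671, SE 0.31). Fabp2 was at 0.04 (SE 0.30) and Dgat1 at -0.05 (SE 0.32). The values of Fabp1 (0.66), Rbp2 (0.68) and Mttp (0.40) rested on APC-KO replicate 1, which has 11 of these cells, and without it they were -0.32, -0.66 and -0.60. Those of Apob and Apoa1 were 0.37 and 0.38 without it, and without APC-KO replicate 2 Apob was 1.496. Without the 5% of cells richest in brush border RNA Apoa1 was 1.19 and not called. Without APC-KO replicate 2, Fabp1, Rbp2 and Mttp were at 1.22, 1.36 and 1.19, and Apoa4 ran from 1.03 to 1.43 over the alternatives. With 1 library left out, Fabp6 could enter the fit through APC-KO replicate 2 alone, so a call there was set by that library.

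**Figure D4:**
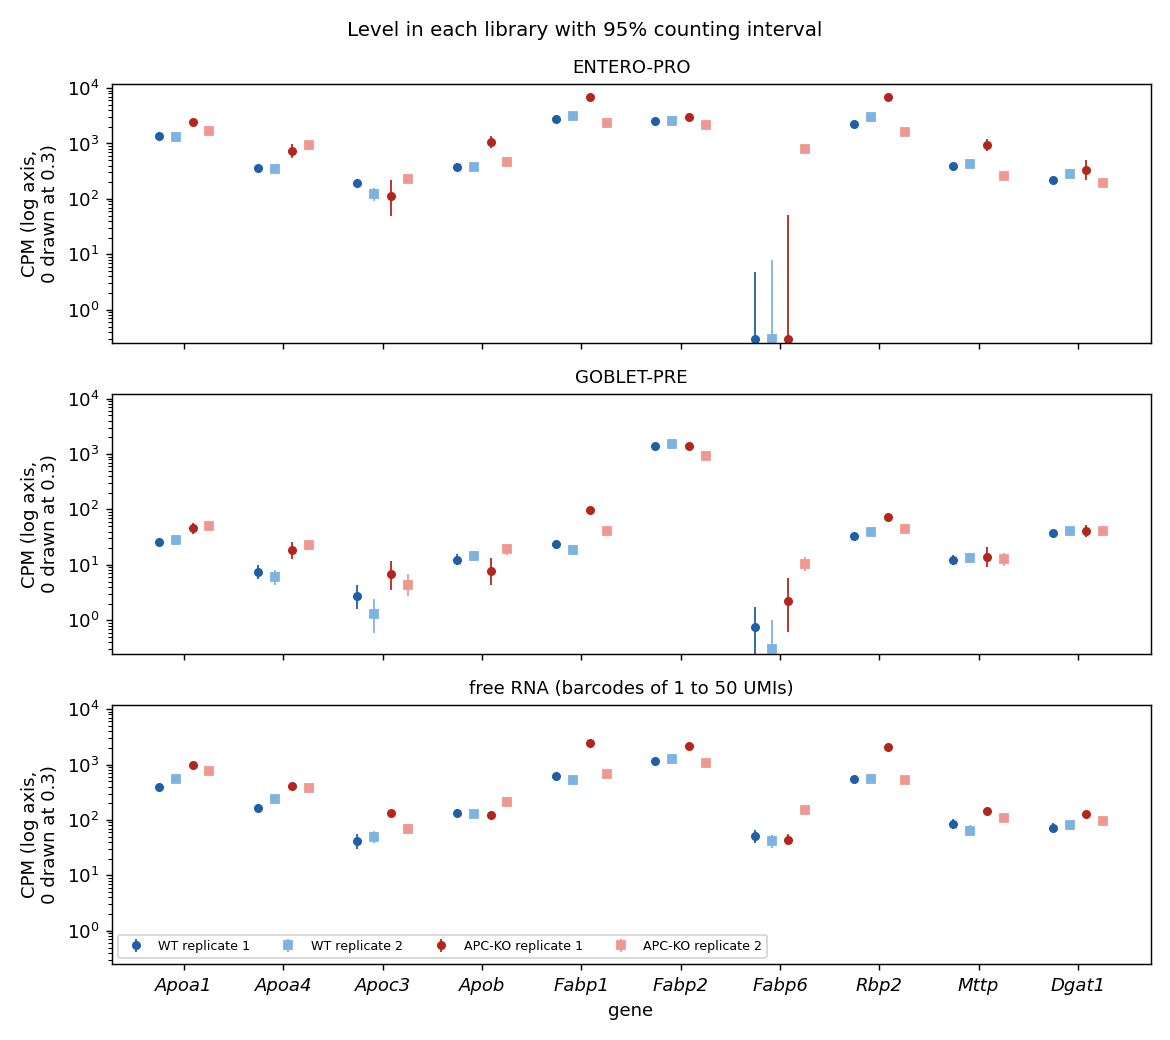
CPM of the 10 genes (horizontal) in each of the 4 libraries (colours) on a log axis with 0 drawn at 0.3, in ENTERO-PRO, GOBLET-PRE and free RNA, with exact Poisson intervals at 95% that cover counting error only. In ENTERO-PRO the APC-KO points of Apoa1, Apoa4 and Apob lie above both WT points, and Fabp6 is above 0 in APC-KO replicate 2 only.

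Free RNA differed between the genotypes in the same direction. All 10 members had positive log2 fold changes, with a median of 1.11 against 0.01 over all genes. By edgeR 0 of 10 were called, against a background of 0% of 9015 genes. At an unadjusted p under 0.05 were 8 of the 10 members, and 416 of the 9015 genes (edgeR). DESeq2 (Wald test) called 1 member, beside 33 of 16280 genes, and 15150 of the 16280 had no adjusted p. Fabp1 had a log2 fold change of 1.77 (SE 0.59), Rbp2 of 1.56 (SE 0.60), Apoc3 of 1.40 (SE 0.41), Apoa4 of 1.13 (SE 0.31) and Apoa1 of 1.09 (SE 0.36). The high Fabp1 and Rbp2 values came from APC-KO replicate 1, and without that library Rbp2 was at -0.10 and Fabp2 at -0.19. In a joint fit with library as a block, the genotype difference in cells was set against that in free RNA. No member of 10 was called there, against a background of 0.00925% (edgeR). Fabp6 had a difference of 4.19 (adjusted p 1.00, SE 0.93) between the log2 fold changes and Apoa4 of 0.88 (SE 0.48). Those of Fabp1, Rbp2, Apoc3 and Apoa1 lay between -0.02 and 0.29. Which members were called also rested on single libraries. Without APC-KO replicate 1 the genotype difference of Fabp1 and Rbp2 was larger in cells, and without APC-KO replicate 2 it was larger in free RNA. Fabp1 and Rbp2 thus turned direction between the APC-KO libraries.

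In ISC, where the stem cell list summed to 4055, 5225, 3457 and 3618 CPM, Apoa4, Apoa1 and Fabp1 were higher in APC-KO. These 3 of the 9 members tested passed, against a background of 2.29% of 9792 genes called higher and 3.57% called in either direction (edgeR). Apoa4 had 6.42, 7.09, 13.2 and 19.4 CPM in ISC, a log2 fold change of 1.59 (adjusted p 0.00177, SE 0.37), and Apoa1 had 14.6, 21.3, 26.4 and 35.6 CPM, one of 1.12 (adjusted p 0.00458, SE 0.28). Fabp1 had 87, 73.1, 251 and 126 CPM, one of 0.86 (adjusted p 0.00845, SE 0.23). The libraries of the genotypes did not overlap for these genes. In APC-KO replicate 1, however, the ISC sum held 75796 UMIs, so its Apoa4 and Apoa1 values were 1 and 2 UMIs. Counting error at so few UMIs spans the WT values. Markers of other cell types differed in the same fit. Of 9 Paneth markers 6 were called lower in APC-KO (Ang4, Defa24, Itln1, Lyz1, Mmp7 and Mptx2), with a list median of -1.59 and sums of 3737, 3407, 462 and 1946 CPM. Of 9 goblet markers 2 were called lower (Agr2 and Ccl6) and all 9 were negative, and Cck and Tac1 of the enteroendocrine list and Vim of the stroma list were called lower. None of the 12 brush border genes tested was called, with a median of -0.05, and the part of these markers in the members' values was not tested. Rbp2 had 38.2, 41.1, 145 and 48.6 CPM, a log2 fold change of 0.50 (adjusted p 0.339), and Mttp and Dgat1 had -0.17 and 0.07. In ISC, Apoa4 and Apoa1 stood at 2.66% to 5.12% of the free RNA of their library, over both genotypes. The part of free RNA in their genotype differences was not tested. With the free RNA profile subtracted at 5% of each sum, Apoa1 and Apoa4 had too few UMIs left to be tested, and Fabp1 was the 1 member called. With the replicate block and by the DESeq2 Wald test 0 members were called, and APC-KO replicate 1 had 13 ISC cells. The 3 calls were not kept when either WT library was left out, nor those of Apoa1 and Apoa4 without APC-KO replicate 2. Fabp6 entered some of these fits, where its APC-KO UMIs came from replicate 2 only.

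In PANETH, 3 of the 8 members tested were higher in APC-KO, against a background of 0.591% of 6942 genes called higher and 1.41% called in either direction (edgeR). Fabp1 had 15.6, 15.9, 403 and 54.7 CPM, a log2 fold change of 3.12 (adjusted p 0.0227, SE 0.68). Rbp2 had 21.7, 15.5, 354 and 58.5 CPM, one of 2.69 (adjusted p 0.0371, SE 0.64), and Apoa1 had 23.0, 11.1, 155 and 70.5 CPM, one of 1.88 (adjusted p 0.0380, SE 0.45). Krt20 and Lgals3 were also called higher, 2 of the 11 brush border genes tested. All 9 Paneth markers were negative, with a median of -1.28, and 1 was called (Pnliprp2). At an unadjusted p under 0.05 were 8 of the 9, and 837 of the 6942 genes (edgeR). Of the goblet markers 8 of 9 were positive and none was called. In each of the called members APC-KO replicate 1 was highest, and it had 16 PANETH cells. Its 10 cells under 4000 UMIs had 1749 CPM of Fabp1, 1530 of Rbp2 and 812 of Apoa1, beside 874 CPM of Lyz1 and 1249 CPM of Itln1, which are Paneth cell products, and 1593 CPM of the stem cell gene Olfm4. Its other 6 cells, of 9840 or more UMIs, had 114 CPM of Fabp1, 101 of Rbp2, 13.4 of Apoa1, 22335 of Lyz1, 42556 of Itln1 and 0 of Olfm4. The 10 cells thus lacked the levels of Paneth markers of the others and held most of the members' UMIs. Without them (an alternative chosen with the data in view) no member was called, and the log2 fold changes were 1.43 for Fabp1 (adjusted p 0.172), 1.23 for Rbp2 (adjusted p 0.211) and 1.20 for Apoa1 (adjusted p 0.185, edgeR). Without APC-KO replicate 1, Fabp1 had 0.98, and Fabp6 entered that fit through APC-KO replicate 2 alone. The 3 calls were not kept when APC-KO replicate 1 or either WT library was left out.

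**Figure D5:**
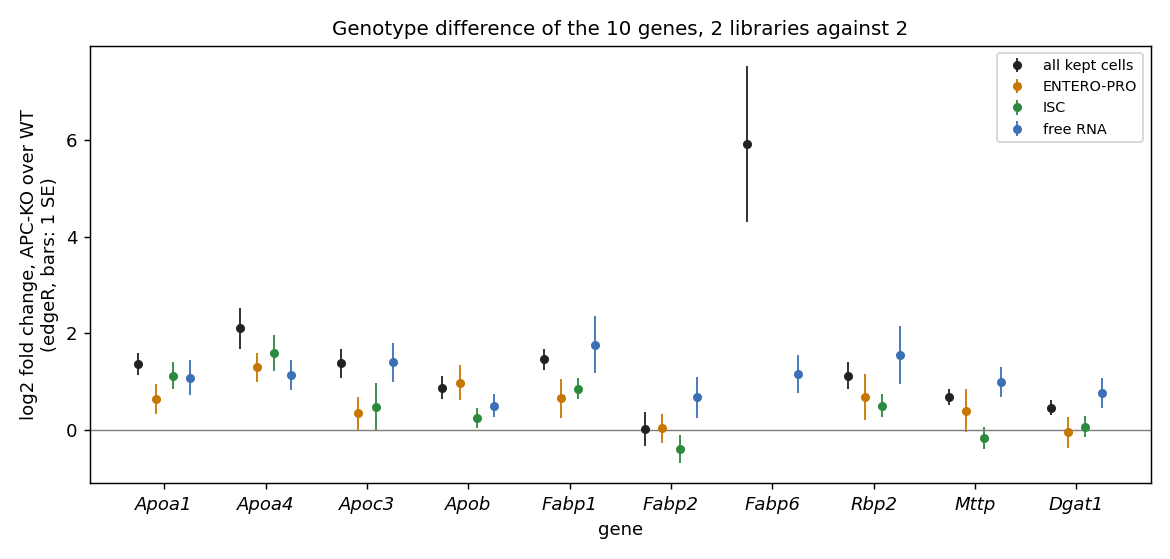
Log2 fold change of APC-KO over WT (vertical, edgeR, bars of 1 SE, 2 libraries against 2) for the 10 genes (horizontal) over all kept cells, in ENTERO-PRO, in ISC and in free RNA. Fabp2 and Dgat1 lie near 0 within ENTERO-PRO, and Fabp6 was tested over all cells and in free RNA only, at 5.92 and 1.16.

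In the other types no member was called. In GOBLET-PRE, the type with most cells in 3 of the 4 libraries, Apoa4 had 7.51, 6.02, 18.5 and 23.0 CPM, a log2 fold change of 1.75 (adjusted p 0.192, SE 0.24), and Fabp1 23.7, 18.9, 96.5 and 40.6 CPM, one of 1.75 (adjusted p 0.515, SE 0.41, edgeR). None of 10 members was called there, against a background of 0.00974% of 10272 genes. The DESeq2 Wald test called 3 of them, and 36 of 15920 genes. The backgrounds of the remaining types, each with 0 members called by edgeR, were 0% in EC (9 tested), 0.654% in EEC-PRE (7), 0.0837% in GOBLET (9), 0.113% in NON-EC (8) and 1.53% in PANETH-PRE (7). Counting only genes called higher in APC-KO, they were 0% in EC, 0.548% in EEC-PRE, 0.0335% in GOBLET, 0.0628% in NON-EC and 0.772% in PANETH-PRE. Members with an unadjusted p under 0.05 numbered 6 in GOBLET-PRE, 3 in EEC-PRE, 3 in NON-EC, 2 in EC, 1 in GOBLET and 1 in PANETH-PRE. Over all genes the numbers, in the same order, were 817 of 10272, 579 of 6573, 708 of 7959, 729 of 8690, 669 of 5974 and 675 of 5568. Rbp2 in NON-EC went the other way, with a log2 fold change of -0.97 (adjusted p 0.206, SE 0.26). With 1 library left out, members were called in EC, EEC-PRE, NON-EC and GOBLET-PRE. A group then holds 1 library, so these calls are not read here. GP, SEC-PRO and TUFT had 7, 5 and 8 cells in APC-KO replicate 1 and were not fitted.

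Other genes of the pathway were read from 5 lists. Of 13 genes of lipid uptake and sterol transport 12 were tested over all cells, and none was called. Their median log2 fold change was 0.31. In ENTERO-PRO it was -0.04 over 8 genes, with Npc1l1, the intestinal cholesterol importer, at 58.0, 76.0, 42.2 and 55.0 CPM. Pnliprp2, a lipase also held by the Paneth marker list, was the only list gene outside the members to pass in any fit. It fell by 2.12 on the log2 scale in PANETH (adjusted p 0.00800) and by 2.84 in PANETH-PRE (adjusted p 1.93e-06, edgeR). Of 17 genes of fatty acid activation, esterification and droplets 0 were called over all cells and 0 of 16 in ENTERO-PRO, where the median was 0.32. Dbi, which carries acyl-CoA, had 1561, 1299, 2544 and 1439 CPM in ENTERO-PRO, and Acsl5, which activates fatty acids, 231, 224, 408 and 202 CPM.

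The other genes of chylomicron assembly did not share the positive median of the members. Of 11 genes 10 were tested over all cells with a median of -0.02, and 8 in ENTERO-PRO with a median of -0.07, none called. P4hb, the small subunit of the transfer protein complex and a general disulphide isomerase, had 717, 808, 1167 and 644 CPM in ENTERO-PRO, and Sar1b, the GTPase of chylomicron export, 149, 167, 169 and 114 CPM. Of 8 retinoid genes 3 were tested in ENTERO-PRO, none called, with a median of -0.70. Rbp7 had 73.8, 124, 70.3 and 55.0 CPM there, Rdh7, a retinol dehydrogenase, 64.5, 91.2, 70.3 and 31.9 CPM, and Aldh1a1, which makes retinoic acid, 107, 102, 183 and 78.9 CPM. The 17 regulators had a median of 0.11 over all cells and -0.04 over the 13 tested in ENTERO-PRO, none called. Hnf4a, a nuclear receptor of enterocyte lipid genes, had 183, 163, 253 and 186 CPM in ENTERO-PRO and 149, 141, 135 and 157 CPM over all cells. Klf5 had 544, 595, 450 and 538 CPM in ENTERO-PRO and Gata6 85.6, 128, 112 and 84.8 CPM.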

How the data were processed

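Libraries were made with 10x 3′ v3.1 chemistry, per the labels' protocols, and the submitters' processing notes name Cell Ranger 3.0.2, STAR and mm10. The authors deposited UMI counts per gene and barcode, and tables of kept cells with their type, counts and percent of mitochondrial UMIs. Kept cells had 901 to 2999 genes, and how doublets were treated is not given in the sources used here. Groups came from the labels. The 10 members, the 5 pathway lists and the marker lists were chosen with earlier results of these data known. UMIs were summed per type and library, and over barcodes of 1 to 50 UMIs for free RNA, with 1106937 to 1872673 UMIs. Sums were tested with edgeR 4.0.16 (TMM scaling, filterByExpr, quasi-likelihood test, 2 libraries against 2, adjusted p under 0.05) in types with at least 10 cells in every library, and cells against free RNA in 1 fit with library as a block. Shares of cells were taken after thinning to 2000 UMIs, leaving out shallower cells. Alternatives were DESeq2 1.42.0, its size factors, no filter, the replicate block, each library left out, thinning, 5% of free RNA subtracted and other barcode ranges. DESeq2 gave no adjusted p for 15150 of 16280 genes in free RNA, 13559 of 15542 in EC and 12901 of 13863 in PANETH. The numbers were 10637 of 14068 in PANETH-PRE and 4306 of 15876 in ISC. They were 3397 of 19507 over all cells, 3245 of 13946 in EEC-PRE and 2128 of 15920 in GOBLET-PRE. Named genes were the members, list genes past the threshold or among the 4 highest of a list, and the genes most alike in pattern. Intervals and floors cover counting error only. R 4.3.3, Python 3.11.15 and pandas 2.3.3 were used, and the test was tried on simulated data. Gene positions are those of GENCODE vM21 and promoters those of RefSeq.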

Additional observations from a re-analysis of the deposited data

Results flagged for a closer look

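Fabp2 in GOBLET-PRE had a log2 fold change of -0.23, with both APC-KO libraries below both WT libraries, while in 5 types (EC, EEC-PRE, NON-EC, PANETH and PANETH-PRE) both APC-KO libraries lay above both WT libraries. Without APC-KO replicate 2 it was 0.080. Rbp2 in NON-EC had one of -0.97, lower in both APC-KO libraries, while it was higher in both in 6 types (EC, EEC-PRE, GOBLET-PRE, ISC, PANETH and PANETH-PRE). Mttp in ISC had one of -0.17, lower in both APC-KO libraries, while it was higher in both in 3 types (GOBLET, NON-EC and PANETH). The nearest libraries of the genotypes were both at 52.8 CPM for Mttp in ISC. These 3 results stand here because the libraries of a gene were ordered opposite ways in different cell types. None of the 3 passed the threshold, and the differences between the types were not tested.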

How the results depend on the processing

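The count of members highest in ENTERO-PRO was 9 in WT and 10 in APC-KO thinned, with free RNA subtracted and without the cells richest in brush border RNA, and leaving out a library was not run for it. The place of Fabp6 in the APC-KO count rests on APC-KO replicate 2, with 807 CPM against 0 in the other library. Counts of called members did not keep: leaving out 1 library at a time they ranged from 0 to 7 over all cells, 0 to 6 for cells against free RNA, 0 to 8 in free RNA, 0 to 4 in ENTERO-PRO, 0 to 4 in ISC, 0 to 3 in PANETH, 0 to 3 in GOBLET-PRE and 0 to 2 in each of EC, EEC-PRE and NON-EC. With 1 library left out, 1 group holds 1 library, and the count over all genes moved as well, as given at the end. Some of these calls are of Fabp6, which could then enter a fit through APC-KO replicate 2 alone. The DESeq2 Wald test called 3 members over all cells, 3 in GOBLET-PRE, 1 in ENTERO-PRO, 1 in free RNA, 1 in PANETH and 0 in ISC. Genes called by it were 21 of 19507 over all cells, 36 of 15920 in GOBLET-PRE and 5 of 14083 in ENTERO-PRO. They were 33 of 16280 in free RNA, 50 of 13863 in PANETH and 12 of 15876 in ISC. Testing every gene with at least 1 UMI, edgeR called 4 members over all cells, 5 in free RNA, 5 in GOBLET-PRE and 6 in PANETH. It called 1 in each of cells against free RNA, EEC-PRE, ENTERO-PRO, GOBLET, NON-EC and PANETH-PRE. Genes called so were 21 of 19507 over all cells, 123 of 16280 in free RNA, 280 of 15920 in GOBLET-PRE and 205 of 13863 in PANETH. They were 10 of 19925 for cells against free RNA, 98 of 13946 in EEC-PRE and 80 of 14083 in ENTERO-PRO. They were 79 of 12750 in GOBLET, 141 of 15069 in NON-EC and 161 of 14068 in PANETH-PRE. Thinned to 2000 UMIs, 1 member was called in GOBLET-PRE, 0 in ISC and 0 in PANETH, beside 9 of 9068, 120 of 7389 and 17 of 2428 genes. With free RNA subtracted, 1 member was called in EEC-PRE and 1 in ISC, beside 22 of 6426 and 257 of 9668 genes. In PANETH 0 members were called without the cells richest in brush border RNA, beside 39 of 7232 genes. Without the 10 cells under 4000 UMIs 0 members were called there, beside 41 of 7111 genes.

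Libraries shared only a replicate number, and deviations of same-numbered libraries correlated at -0.391 over all cells and -0.166 in free RNA, and at -0.0721 to 0.0260 within types. With the replicate block 4 members were called in GOBLET-PRE and 0 in ISC, and genes called went from 0 to 4 over all cells, 350 to 76 in ISC, 1 to 110 in GOBLET-PRE, 5 to 73 in GOBLET and 0 to 25 in free RNA.

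Some log2 fold changes turned sign. Fabp2 over all cells was -0.041 with the replicate block, -0.035 thinned, -0.026 with free RNA subtracted and -0.074 without ENTERO-PRO cells. In ENTERO-PRO Fabp2 was -0.049 by DESeq2, -0.078 testing genes with at least 1 UMI, -0.031 thinned and -0.0052 with free RNA subtracted. Leaving out 1 library at a time, Fabp2 ranged from -0.49 to 0.43 over all cells, -0.19 to 0.20 in ENTERO-PRO, -0.19 to 1.21 in free RNA and -0.62 to 0.080 in GOBLET-PRE. In ENTERO-PRO the ranges were -0.55 to 0.68 for Apoc3, -0.33 to 0.41 for Dgat1, -0.32 to 1.22 for Fabp1, -0.66 to 1.36 for Rbp2 and -0.60 to 1.19 for Mttp, and in free RNA -0.10 to 2.30 for Rbp2. Except for Apoc3, both ends of each range came from leaving out an APC-KO library. The causes were not tested.

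Over these alternatives genes called ranged from 0 to 483 over all cells, 12 to 786 in ISC, 1 to 392 in ENTERO-PRO, 0 to 225 in PANETH, 0 to 731 in free RNA, 0 to 280 in GOBLET-PRE, 0 to 405 in EC, 0 to 285 in EEC-PRE, 0 to 79 in GOBLET, 1 to 344 in NON-EC, 3 to 161 in PANETH-PRE and 0 to 234 for cells against free RNA. Depth limits APC-KO replicate 1 most, with 11 to 16 cells behind its values in ENTERO-PRO, ISC and PANETH.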
